A study of Homo sapiens with 10 samples.

Results

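The genes described here are the human Wnt ligands and the proteins that receive or restrain them at the cell surface: the WNT genes, the Frizzled receptors (FZD), the Dickkopf (DKK) and secreted Frizzled-related (SFRP) inhibitors, the R-spondins (RSPO) and their LGR receptors, the co-receptors LRP5 and LRP6, the ubiquitin ligases RNF43 and ZNRF3, and AXIN2. They were chosen by gene symbol alone, with no measured value in the rule, and 49 of the 25370 genes in the count table matched. Gene expression was measured by RNA sequencing in 4 veliparib-resistant clones, named ABTr1, ABTr2, ABTr3 and ABTr4, and in the parental line PEO1, with 2 libraries for each. PEO1 is an established, BRCA2-deficient cell line from a high grade serous ovarian carcinoma, labelled as epithelial cells of the ovary, and its parental cells carry the genotype label WT. The clones came from PEO1 cells kept in 40 µM veliparib, an inhibitor of PARP1 and PARP2, for 6 months, and they had been off the drug for 4 to 5 days when RNA was taken. All 5 groups were grown in DMEM with serum, nonessential amino acids, insulin, antibiotics and glutamine. Each resistant line is 1 clone, and all 4 are compared with the same pair of parental libraries. The number that the labels give a clone in its description (4, 1, 2 and 3) differs from the number in its library name (ABTr1 to ABTr4), and the library names are used here. The series text speaks of independent experiments, but the labels do not say whether the 2 libraries of a group came from separate cultures, so p-values measure only the spread between libraries.

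Wnt proteins are secreted, lipid-modified ligands that bind a Frizzled receptor together with LRP5 or LRP6, which stops the destruction of beta-catenin and lets it act with TCF/LEF factors in the nucleus. RNF43 and ZNRF3 remove Frizzled receptors from the membrane, and R-spondins, bound to an LGR receptor, take these ligases away. The Dickkopf proteins DKK1 and DKK2 act at LRP5 and LRP6, and secreted Frizzled-related proteins bind the ligands. AXIN2 is a scaffold of the destruction complex whose gene is itself a target of the pathway. Some Wnts, such as WNT5A, also signal through ROR and planar polarity proteins without beta-catenin.

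Library totals were 20640602 to 55488566 counts. Levels are given as CPM, read counts scaled to library size with TMM factors, and for comparisons between genes as CPM per kilobase of exon. Of the 49 genes, 37 passed the expression filter and were tested, and 30 reached 1 CPM or more in at least 1 group. The 12 untested genes were RSPO1, WNT1, WNT2, WNT3A, WNT6, WNT8A, WNT9B, WNT10B, LGR5, SFRP2, SFRP5 and DKK4, of which 3 (WNT3A, WNT6 and SFRP2) had no read in any library. The highest value among the untested genes was 1.49 CPM, for WNT10B in parental replicate 1. Some genes passed the filter only through the side in which they were high. Examples are WNT10A in the parental line and DKK2, WNT5A, WNT8B, FZD10 and RSPO3 in the clones. Such a gene had to differ in level between some libraries, though it need not pass a test. The counts over tested genes, and the tests of these genes, are therefore a description.

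With the 4 clones averaged and set against parental PEO1, 6 Wnt genes were higher and 6 were lower at an edgeR adjusted p under 0.05. These 12 are 32.4% of the 37 tested, beside 16% of all 16490 genes tested (7.17% higher and 8.79% lower). The lower genes were the ligands WNT7B, WNT9A and WNT10A, the R-spondin receptor LGR4, the ligase RNF43 and the co-receptor LRP5. The higher genes were the Dickkopf genes DKK1, DKK2 and DKK3, the inhibitor SFRP1, the R-spondin RSPO4 and the receptor FZD4. The median log2 fold change of the tested Wnt genes was 0.62, also with DKK2 and FZD10 at their lower bounds, and that of all tested genes was 0.02. In single clones the Wnt median was 0.92 in ABTr1, 0.63 in ABTr2, -0.25 in ABTr3 and -0.09 in ABTr4, so the clones did not share its sign. With replicate number in the model, the Wnt median for the mean of the 4 clones was 0.26. With upper-quartile factors the median of all genes moved to 0.19 and their split to 1532 higher and 1080 lower, against 1182 higher and 1449 lower with TMM. When replicate number was added to the model as a block, 22 Wnt genes passed (10 higher and 12 lower, 59.5%, beside 34.6% of all genes, with 16.3% higher and 18.2% lower), and these held all 12 of the model without it.

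Libraries did not overlap for 17 of the tested Wnt genes: all 8 clone libraries lay above both parental libraries for 8 of them and below for 9, which is 45.9% of the tested Wnt genes beside 27% of all genes (14.5% above and 12.5% below). WNT5A and WNT8B, both genes that had to differ, lay above without passing the test. WNT3, FZD2, FZD5 and LRP6 lay below without passing.

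**Figure D1:**
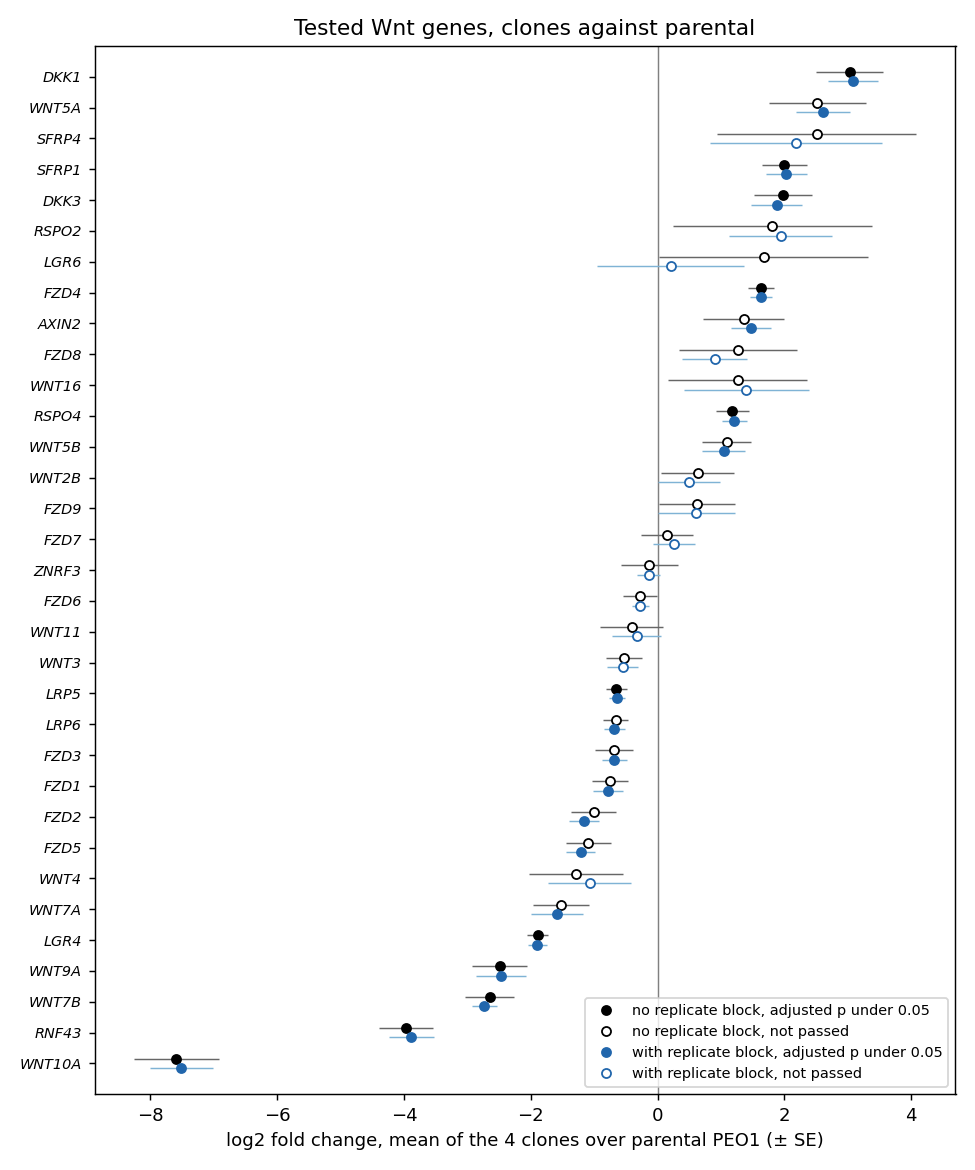
Log2 fold change (± SE) of the mean of the 4 clones over parental PEO1 for each tested Wnt gene with more than 3 parental reads. Black points are from the fit without and blue points from the fit with the replicate block, filled where the edgeR adjusted p was under 0.05. WNT10A, at -7.59, and RNF43, at -3.97, are the lowest, and DKK1, at 3.03, is the highest gene that passed. DKK2, FZD10, WNT8B and RSPO3 are left out because their parental libraries held 3 reads or fewer.

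Per kilobase of exon, the most abundant of these transcripts were not the same in both states. In the clones SFRP1 came first, with a mean of 73.0 CPM per kilobase, before WNT5B with 68.9, FZD6 with 46.9, DKK1 with 46.7 and RSPO4 with 18.7. In parental PEO1 WNT7B came first with 94.5 CPM per kilobase, before FZD6 with 56.3, WNT5B with 31.9, FZD2 with 24.7 and LRP5 with 23.6. SFRP1 stood at 18.0 and DKK1 at 5.31 CPM per kilobase in the parental line.

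**Figure D2:**
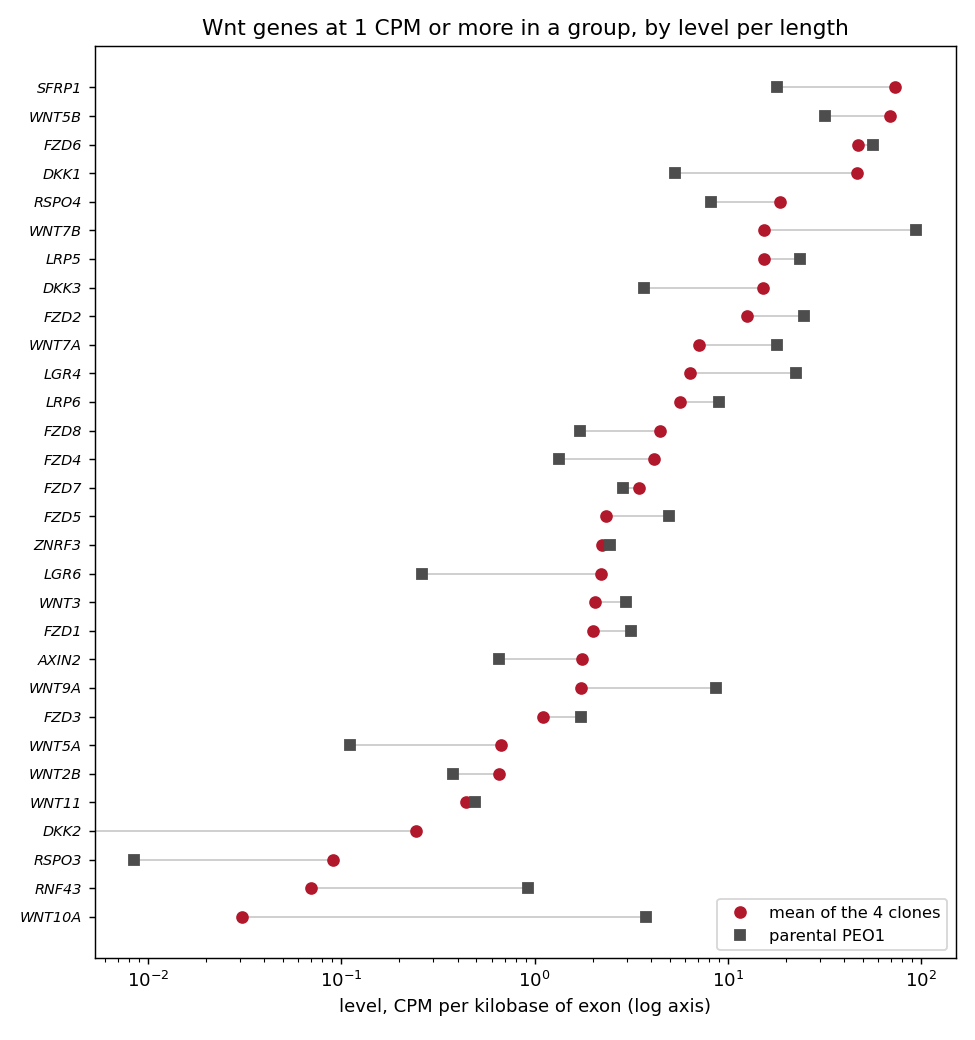
Level of each Wnt gene that reached 1 CPM in a group, as CPM per kilobase of exon on a log axis, with red circles for the mean of the 4 clones and dark squares for the mean of the 2 parental libraries. WNT7B stands at 15.3 in the clones and 94.5 in the parental line, and SFRP1 at 73.0 and 18.0. DKK2 has no parental point because it had no parental read.

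Among the 19 WNT genes, 12 were tested, 3 fell and none rose in the fit without the block, and 4 fell and 3 rose with it. Of all genes 8.79% fell and 7.17% rose without the block, and 18.2% fell and 16.3% rose with it. WNT10A, among those that fell, had to differ, as did WNT5A and WNT8B, among those that rose with the block. WNT7B, a ligand that acts through beta-catenin in brain vessels and other tissues, was the most abundant ligand of the parental line. WNT7B (hg19, chr22:46316248-46373008) had 53.6 and 70.9 CPM in ABTr1, 55.2 and 101.8 in ABTr2, 32.7 and 55.5 in ABTr3, and 24.8 and 85.3 in ABTr4, against 315.7 and 423.4 CPM in parental PEO1. Every clone library was below both parental libraries, and the second library was the higher of the pair in all 5 groups. Its mean was 60.0 ± 14.4 CPM in the clones and 370 ± 76.1 CPM in the parental line (SD, n = 4 clones and 2 libraries), a log2 fold change of -2.65 (± 0.38 SE, p adjusted by edgeR = 0.0029). It passed in ABTr1, ABTr3 and ABTr4 singly, and ABTr2, with -2.24, had an edgeR adjusted p of 0.0565 without and 0.000922 with the block.

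WNT10A, a ligand needed for teeth, hair and sweat glands, showed the largest drop of the Wnt genes tested. WNT10A (hg19, chr2:219745255-219758651) had 0 and 0.123 CPM in ABTr1, 0.109 and 0.29 in ABTr2, 0.0383 and 0 in ABTr3, and 0.0215 and 0 in ABTr4, against 5.95 and 12.0 CPM in parental PEO1. The 8 clone libraries together held 19 reads of this gene, and the 2 parental libraries held 550. Its log2 fold change was -7.59 (± 0.67 SE, p adjusted by edgeR = 0.000375), given as a description because the gene passed the filter through the parental libraries alone. The 250 bases before its start are shown because it is the ligand that fell furthest. They hold 24 CpG sites, beside a median of 11 over the 35116 promoters of the same length in the RefSeq table, and no match to the motifs described further on.
WNT10A (RefSeq, GRCh38.p14, chr2:218880602-218880851, plus strand): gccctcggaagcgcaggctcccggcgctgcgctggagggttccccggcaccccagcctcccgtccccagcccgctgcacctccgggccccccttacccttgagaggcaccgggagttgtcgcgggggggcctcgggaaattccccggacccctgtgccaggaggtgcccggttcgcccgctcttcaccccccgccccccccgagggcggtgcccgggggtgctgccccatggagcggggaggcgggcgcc

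WNT9A, which takes part in joint formation, fell as well. WNT9A (hg19, chr1:228109165-228135676) had 2.6 and 2.0 CPM in ABTr1, 3.27 and 3.48 in ABTr2, 2.45 and 1.83 in ABTr3, and 0.344 and 1.26 in ABTr4, against 15.4 and 6.03 CPM in parental PEO1. All clone libraries were below both parental libraries, and ABTr4 was the lowest group. The parental libraries differed from each other by more CPM than the 2 libraries of any clone did. By ratio the ABTr4 pair differed more than the parental pair, and the pairs of ABTr1, ABTr2 and ABTr3 differed less. Its log2 fold change was -2.49 (± 0.43 SE, p adjusted by edgeR = 0.00669). Without parental replicate 1 it no longer passed (-1.70, edgeR adjusted p = 0.077), and of the single clones it passed in ABTr4 alone (-3.76, edgeR adjusted p = 0.0146).

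The remaining ligands stood on either side of the parental level. WNT5B, a relative of WNT5A, averaged 159 ± 27.1 CPM in the clones and 73.8 ± 33.2 CPM in the parental line, a log2 fold change of 1.09 (± 0.39 SE, p adjusted by edgeR = 0.0939, and 0.0406 with the block). WNT5A averaged 4.17 ± 1.76 CPM in the clones and 0.69 ± 0.556 CPM in the parental line, and all clone libraries, at 1.83 to 9.13 CPM, were above the parental ones, at 0.298 and 1.08 CPM. Its log2 fold change of 2.52 (SE 0.76) had an edgeR adjusted p of 0.0559 without and 0.00109 with the block, under which it rose in each clone. These values are a description, because WNT5A passed the filter only through the clones. WNT7A, the close relative of WNT7B, averaged 12.1 ± 5.45 CPM in the clones and 30.7 ± 14.2 CPM in the parental line (-1.52 ± 0.44 SE, p adjusted by edgeR = 0.0504, and 0.0129 with the block). It fell in ABTr4 singly (-2.94, edgeR adjusted p = 0.0289), where it had 5.76 and 2.19 CPM.

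WNT3, a beta-catenin ligand, averaged 6.88 ± 0.57 CPM in the clones and 9.94 ± 1.15 CPM in the parental line (-0.53 ± 0.28 SE, p adjusted by edgeR = 0.228). WNT2B had 0.672 to 4.34 CPM in the clone libraries and 1.66 and 1.04 CPM in the parental ones. WNT11 had 0.306 to 1.85 CPM in clone libraries, against 0.545 and 1.35 CPM in parental ones. WNT8B was rare, with 52 reads over the clones and 1 over the parental libraries, a ratio of 11.1 (95% counting interval 1.91 to 449). Its edgeR adjusted p was 0.0618 without and 0.0406 with the block, given as a description because the gene passed the filter through the clones alone. WNT4 and WNT16 stayed under 1 CPM in every library, and neither passed.

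Summed per kilobase of exon, the WNT transcripts came to 62.8 to 118 CPM per kilobase in the clone libraries, against 154 and 168 in the parental ones. WNT5B made up 50.5% to 83.7% of that sum in the clone libraries, against 27.3% and 12.9% in the parental ones. WNT7B made up 8.0% to 22.0% in the clone libraries and 52.4% and 64.3% in the parental ones. WNT7A made up 1.24% to 15.9% in clone libraries, against 7.81% and 14.1% in parental ones, so that its share overlapped where those of WNT5B and WNT7B did not.

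**Figure D3:**
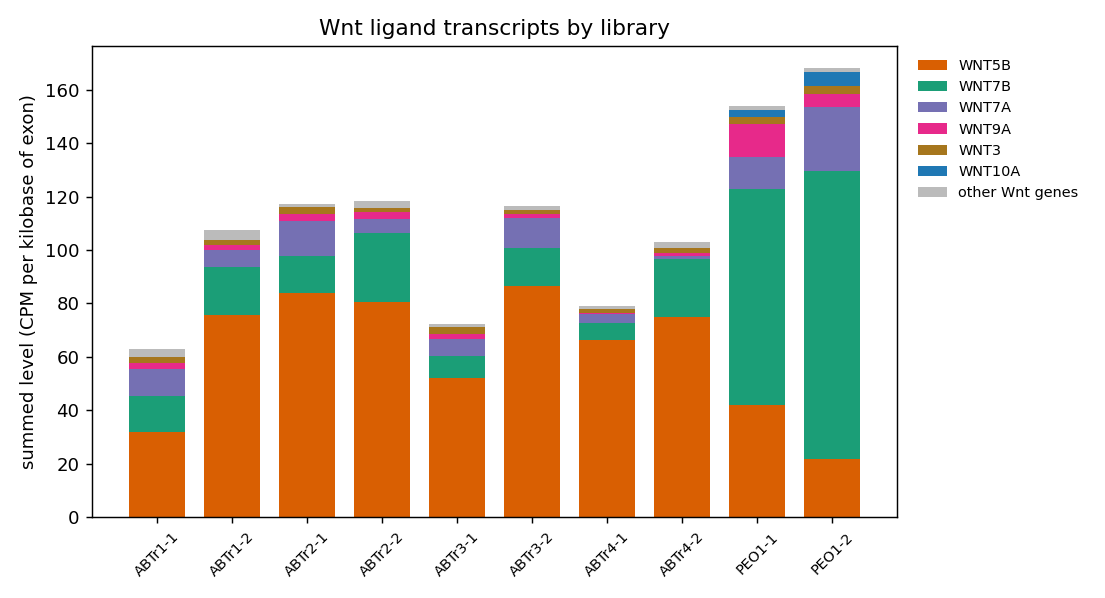
Summed level of the WNT transcripts in each library, as stacked bars in CPM per kilobase of exon, with the clones on the left and parental PEO1 on the right. WNT5B (orange) forms 50.5% or more of each clone bar, and WNT7B (green) 52.4% and 64.3% of the parental bars.

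The R-spondin branch moved in both directions: RSPO4 rose, while the receptor LGR4 and the ligase RNF43 fell. LGR4, a receptor for R-spondins, is the abundant LGR gene of these cells. LGR4 (hg19, chr11:27387508-27494334) had 29.4 and 36.5 CPM in ABTr1, 34.1 and 36.1 in ABTr2, 41.7 and 51.3 in ABTr3, and 18.5 and 19.3 in ABTr4, against 131.8 and 103.4 CPM in parental PEO1. Both ABTr4 libraries were the lowest, and the highest clone library stood under the parental ones. It averaged 33.4 ± 11.3 CPM in the clones and 118 ± 20.1 CPM in the parental line (log2 fold change -1.89 ± 0.17 SE, p adjusted by edgeR = 0.000413), and it fell in each clone singly.

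RNF43 (hg19, chr17:56431038-56494931) had 0.396 and 0.492 CPM in ABTr1, 0.254 and 0.725 in ABTr2, 0.249 and 0.207 in ABTr3, and 0.086 and 0.123 in ABTr4, against 2.55 and 5.88 CPM in parental PEO1. The clones held 87 reads in all and the parental libraries 255, and no clone library reached the parental range. Its log2 fold change was -3.97 (± 0.43 SE, p adjusted by edgeR = 0.00083), with single clones between -3.17 in ABTr2 and -5.31 in ABTr4, each of which passed. The antisense gene BZRAP1-AS1 overlaps 51 bases of its exons, and the library kit does not mark strand. ZNRF3, the related ligase, did not pass. ZNRF3 had 18.7 and 12.1 CPM in ABTr1, 20.1 and 9.18 in ABTr2, 23.8 and 10.1 in ABTr3, and 18.3 and 9.42 in ABTr4, against 21.7 and 11.5 CPM in parental PEO1. Replicate 1 was the higher library in all 5 groups, and the ranges overlapped. Its log2 fold change was -0.13 (± 0.45 SE, p adjusted by edgeR = 0.878), and the sign turned with upper-quartile factors (0.04) and without parental replicate 1 (0.37).

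The table of RefSeq promoters holds 32 of the 49 genes and 8 of the 12 that passed. Both starts of RNF43 and the start of DKK1 are shown because these genes carry the only TCF/LEF matches among those 8. The motifs searched on both strands in the 250 bases before each start were the TCF/LEF core CTTTGA or CTTTGT, held by 22.8% of the 35116 promoters, and the E-box of ZEB type CAGGTA or CAGGTG, held by 23.8%. Each RNF43 start has 1 match to the TCF/LEF core and 1 to the E-box, and 4 CpG sites before the first start and 0 before the second. Capitals mark the matches, which do not overlap.
RNF43 start 1 (RefSeq, GRCh38.p14, chr17:58417535-58417784, minus strand): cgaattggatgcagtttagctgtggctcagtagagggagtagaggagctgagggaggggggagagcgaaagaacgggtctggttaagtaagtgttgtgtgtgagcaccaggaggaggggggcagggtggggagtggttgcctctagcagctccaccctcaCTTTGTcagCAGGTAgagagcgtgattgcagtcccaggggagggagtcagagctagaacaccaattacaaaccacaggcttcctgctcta
RNF43 start 2 (RefSeq, GRCh38.p14, chr17:58402722-58402971, minus strand): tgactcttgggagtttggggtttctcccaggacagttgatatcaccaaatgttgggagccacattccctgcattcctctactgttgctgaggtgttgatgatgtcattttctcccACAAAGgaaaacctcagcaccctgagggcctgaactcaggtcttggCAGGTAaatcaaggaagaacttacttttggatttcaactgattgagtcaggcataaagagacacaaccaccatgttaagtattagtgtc

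RSPO4, an R-spondin known for its part in nail growth, was the one abundant R-spondin. RSPO4 (hg19, chr20:939096-982907) had 61.5 and 50.3 CPM in ABTr1, 45.2 and 42.3 in ABTr2, 48.3 and 54.7 in ABTr3, and 59.3 and 43.9 in ABTr4, against 28.1 and 16.4 CPM in parental PEO1. All clone libraries were above both parental libraries and close to each other. It averaged 50.7 ± 5.06 CPM in the clones and 22.3 ± 8.30 CPM in the parental line (log2 fold change 1.18 ± 0.26 SE, p adjusted by edgeR = 0.0184), and it no longer passed without parental replicate 2 (0.84, edgeR adjusted p = 0.14). The 250 bases before its start hold 2 matches to the E-box and none to the TCF/LEF core. RSPO3 had 147 reads over the clones and 2 over the parental libraries, a ratio of 15.8 (95% counting interval 4.29 to 131), and did not pass. Of the clone reads 89 were in ABTr2 replicate 1, and ABTr4 had 0.11 and 0.06 CPM, against 0 and 0.08 CPM in parental PEO1. RSPO2 stayed under 1 CPM in every library. LGR6 differed most between the libraries of ABTr2: it had 1.3 and 19.9 CPM in ABTr1, 0.527 and 39.2 in ABTr2, 0.249 and 0.354 in ABTr3, and 0.0645 and 2.71 in ABTr4, against 1.02 and 0.89 CPM in parental PEO1. LGR5, the intestinal stem cell receptor, had 29 reads over the clones and none in the parental libraries, at least 2.07-fold higher, with a floor of 3 counts over the parental group.

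All 10 Frizzled genes were tested; 1 rose and none fell without the block, and 4 fell and 1 rose with it. The share of all genes called was 7.17% higher and 8.79% lower without the block, and 16.3% higher and 18.2% lower with it, so 1 of 10 that rose is near the share of all genes. FZD4, a receptor for Norrin as well as for Wnts, was the one that rose. FZD4 (hg19, chr11:86656717-86666440) had 28.4 and 26.9 CPM in ABTr1, 32.3 and 30.1 in ABTr2, 37.5 and 32.1 in ABTr3, and 26.8 and 31.1 in ABTr4, against 9.72 and 10.0 CPM in parental PEO1. The parental pair was close together and every clone library was above it. Its means were 30.7 ± 3.16 CPM in the clones and 9.87 ± 0.213 CPM in the parental line, 3.09-fold higher (log2 fold change 1.63 ± 0.20 SE, p adjusted by edgeR = 0.00143), and it rose in each clone singly.

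FZD6, a receptor of planar polarity in skin and hair, made up the largest share of the Frizzled transcripts per kilobase in each library, with 52.7% to 70.5% in the clones, against 51.0% and 63.9% in the parental libraries. Its mean was 184.5 ± 35.0 CPM in the clones and 222 ± 67.6 CPM in the parental line, and the difference did not pass. FZD2 had 25.4 to 78.3 CPM in clone libraries, against 108 and 80.8 CPM in parental ones (log2 fold change -1.01 ± 0.36 SE, p adjusted by edgeR = 0.093, and 0.00467 with the block). FZD5 had 9.76 to 25.3 CPM in clone libraries, against 30.0 and 35.0 CPM in parental ones (-1.09 ± 0.35 SE, p adjusted by edgeR = 0.0694, and 0.00282 with the block). FZD1 fell in ABTr4 singly, where it had 4.45 and 3.29 CPM, against 12.2 and 15.2 CPM in the parental line (-1.82, edgeR adjusted p = 0.0225), and over the 4 clones it had -0.75 (edgeR adjusted p = 0.104, and 0.0279 with the block). FZD3 had 9.08 to 24.8 CPM in clone libraries and 28.0 and 20.1 CPM in parental ones (-0.68, edgeR adjusted p = 0.157, and 0.0211 with the block). FZD7, with 6.02 to 20.7 CPM in clone libraries and 5.63 and 16.6 in parental ones, FZD8 and FZD9 did not pass in either fit. FZD8 was higher in replicate 1 than in replicate 2 in all 5 groups, with 44.2 and 3.14 CPM in ABTr2, against 6.32 and 4.6 CPM in parental PEO1. FZD10 had 32 reads over the clones and none in the parental libraries, at least 2.29-fold higher for the clones pooled, and did not pass. Most of these reads were in ABTr1 and ABTr2, and ABTr4 had 0 reads in both libraries.

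Both co-receptors had lower means in the clones. LRP5 (hg19, chr11:68080077-68216743) had 100.1 and 117.2 CPM in ABTr1, 79.4 and 84.8 in ABTr2, 70.9 and 66.9 in ABTr3, and 68.9 and 68.4 in ABTr4, against 114.1 and 138.3 CPM in parental PEO1. ABTr1 reached the parental range and the other clones did not. It averaged 82.1 ± 18.8 CPM in the clones and 126 ± 17.2 CPM in the parental line (log2 fold change -0.65 ± 0.16 SE, p adjusted by edgeR = 0.0283). It passed in only 6 of the 16 other settings, with edgeR adjusted p up to 0.221, reached without parental replicate 2. LRP6 had 63.2 and 66.0 CPM in ABTr1, 52.6 and 47.7 in ABTr2, 66.0 and 41.8 in ABTr3, and 68.6 and 51.8 in ABTr4, against 89.8 and 90.7 CPM in parental PEO1. All clone libraries of LRP6 were below the parental pair (-0.66 ± 0.20 SE, p adjusted by edgeR = 0.0594, and 0.0097 with the block).

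The Dickkopf genes DKK1, DKK2 and DKK3 and the secreted inhibitor SFRP1 rose in the clones. Of the 4 DKK genes 3 were tested and 3 rose, and of the 4 SFRP genes 2 were tested and 1 rose, beside 7.17% of all genes that rose. DKK2, 1 of the 3, passed the filter through the clones alone and had to differ. DKK1, which blocks LRP5 and LRP6, had 57.2 and 51.2 CPM in ABTr1, 164.6 and 45.5 in ABTr2, 129 and 120.5 in ABTr3, and 50.04 and 56.3 in ABTr4, against 12.9 and 6.27 CPM in parental PEO1. All clone libraries were above both parental libraries, and ABTr3 and 1 library of ABTr2 were the highest. It averaged 84.3 ± 36.3 CPM in the clones and 9.59 ± 4.70 CPM in the parental line (log2 fold change 3.03 ± 0.53 SE, p adjusted by edgeR = 0.0068), and it rose in each clone singly. The gene lies on chromosome 10 (hg19, chr10:54074041-54077417), and the 250 bases before its start hold 3 matches to the TCF/LEF core, no E-box and 18 CpG sites.
DKK1 (RefSeq, GRCh38.p14, chr10:52314031-52314280, plus strand): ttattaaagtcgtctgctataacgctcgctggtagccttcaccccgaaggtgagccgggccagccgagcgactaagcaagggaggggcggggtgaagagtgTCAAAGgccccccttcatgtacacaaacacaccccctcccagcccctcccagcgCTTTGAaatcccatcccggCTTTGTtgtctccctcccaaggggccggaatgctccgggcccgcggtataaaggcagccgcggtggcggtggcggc

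SFRP1, a secreted protein that binds Wnts, was the most abundant of the Wnt gene transcripts per kilobase in the clones. SFRP1 (hg19, chr8:41119476-41166990) had 333 and 387.3 CPM in ABTr1, 314.7 and 177.8 in ABTr2, 263.9 and 429.1 in ABTr3, and 365.4 and 338.5 in ABTr4, against 104.9 and 56.0 CPM in parental PEO1. Even the lowest clone library, ABTr2 replicate 2, was above the parental pair. Its means were 326 ± 53.6 CPM in the clones and 80.5 ± 34.6 CPM in the parental line (log2 fold change 2.00 ± 0.36 SE, p adjusted by edgeR = 0.00808). DKK3, a divergent Dickkopf, had 43.8 and 53.3 CPM in ABTr1, 42.3 and 55.8 in ABTr2, 37.9 and 77.5 in ABTr3, and 18.2 and 33.2 in ABTr4, against 15.7 and 6.27 CPM in parental PEO1. The lowest clone library, of ABTr4, lay just above the higher parental one, and the clone mean was 45.2 ± 13.7 CPM, against 10.97 ± 6.65 CPM in the parental line (1.98 ± 0.46 SE, p adjusted by edgeR = 0.022).

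DKK2, another LRP5 and LRP6 ligand, had 0.452 and 1.17 CPM in ABTr1, 0.472 and 0.193 in ABTr2, 0.211 and 0.768 in ABTr3, and 1.72 and 2.12 in ABTr4, against 0 and 0 CPM in parental PEO1. It was present in all clone libraries, highest in ABTr4, with 270 reads in all, and in neither parental library. This is at least 19.3-fold higher with a floor of 3 counts over the parental group (edgeR adjusted p = 0.0125, a description, since the gene passed the filter through the clones alone). SFRP4 was rare, with 116 reads over the clones and 4 over the parental libraries, and did not pass. The calls on the DKK and SFRP genes rest on the parental pair. Without parental replicate 2, the edgeR adjusted p was 0.0658 for DKK1 (log2 fold change 2.60), 0.142 for DKK3 (1.46) and 0.0733 for SFRP1 (1.62), and DKK2 passed neither without parental replicate 1 (0.0568) nor without parental replicate 2 (0.063).

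Summed per kilobase of exon, DKK and SFRP transcripts came to 83.8 to 189 CPM per kilobase in the clone libraries, against 35.9 and 18.2 in the parental ones. SFRP1 was the largest part of that sum in 6 of the 8 clone libraries and in both parental ones, and DKK1 in ABTr2 replicate 1 and ABTr3 replicate 1.

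**Figure D4:**
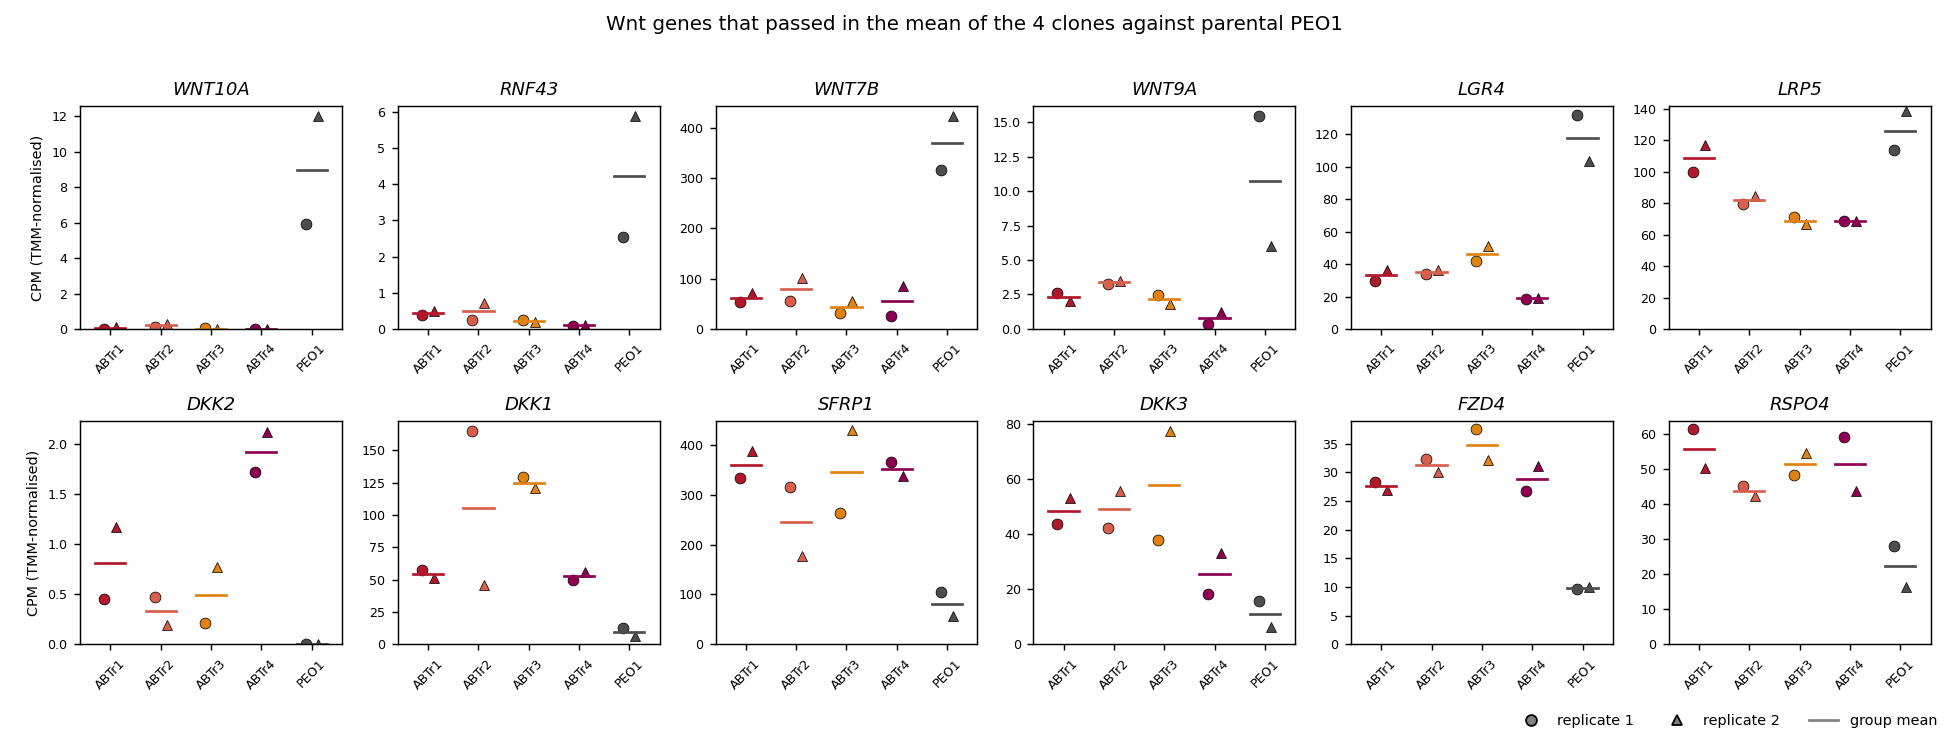
Level in CPM of the 12 Wnt genes that passed, with 1 panel per gene, circles for replicate 1, triangles for replicate 2 and lines for the group means, clones on the left and parental PEO1 on the right. The upper row holds the genes that fell, with WNT10A at 0 to 0.29 CPM in the clone libraries against 5.95 and 12.0 CPM in the parental ones. The lower row holds the genes that rose, with FZD4 at 26.8 to 37.5 CPM against 9.72 and 10.0 CPM.

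AXIN2, the target gene of the pathway, did not pass without the block. AXIN2 (hg19, chr17:63524683-63557740) had 5.6 and 11.6 CPM in ABTr1, 8.59 and 11.9 in ABTr2, 2.87 and 5.49 in ABTr3, and 3.1 and 10.8 in ABTr4, against 1.31 and 4.26 CPM in parental PEO1. The groups overlapped, since replicate 1 of ABTr3 and of ABTr4 lay below parental replicate 2, but each clone library exceeded the parental one with the same replicate number. Its log2 fold change was 1.36 (± 0.64 SE, p adjusted by edgeR = 0.188), and 1.47 (± 0.32 SE, p adjusted by edgeR = 0.0058) with the block, under which it rose in ABTr1, ABTr2 and ABTr4 and had 0.72 in ABTr3 (edgeR adjusted p = 0.189). The block was the only 1 of 16 other settings in which it passed, and its log2 fold change was 0.70 without parental replicate 1 and 2.43 without parental replicate 2.

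**Figure D5:**
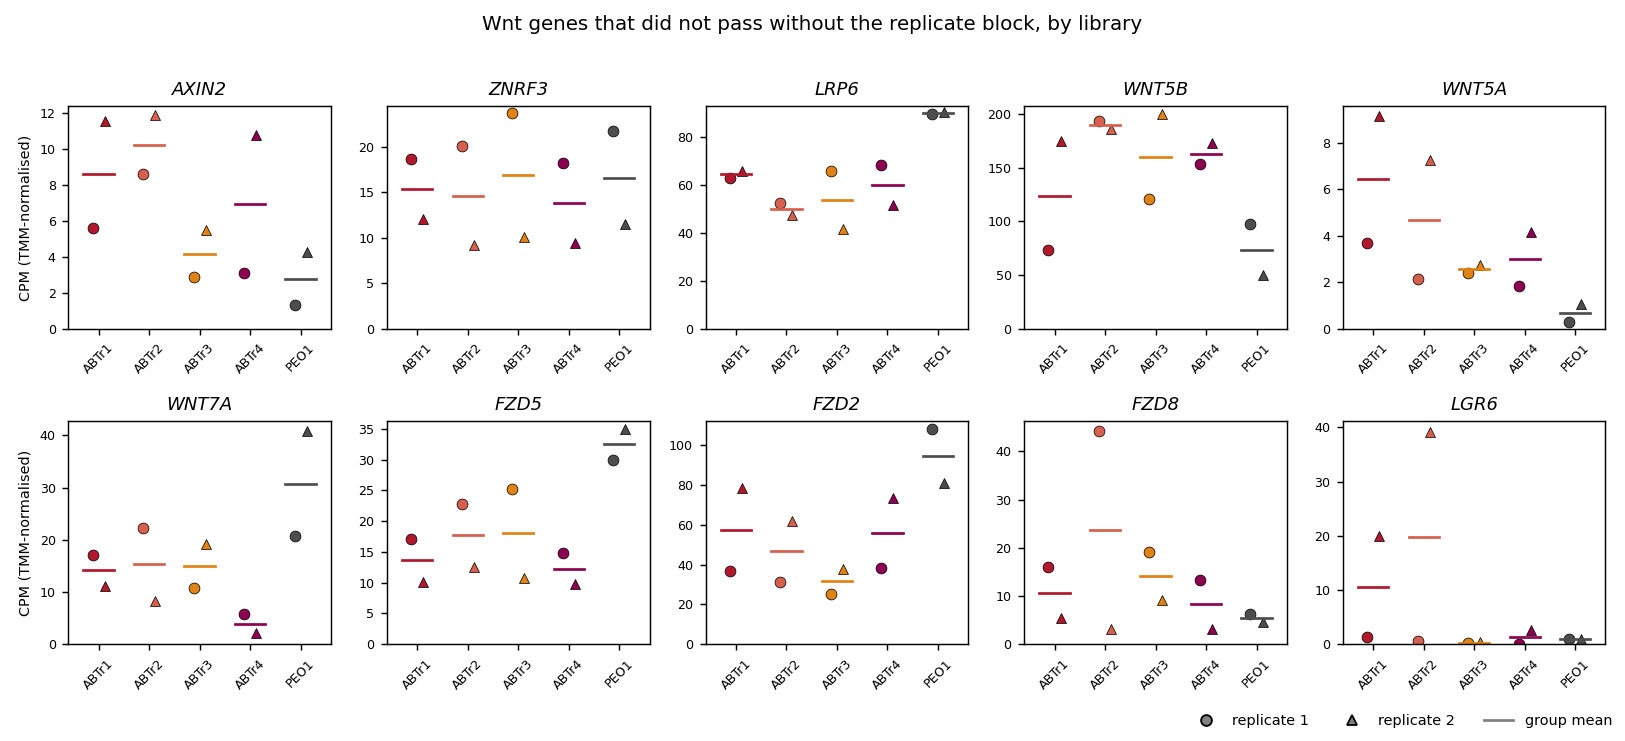
Level in CPM of 10 Wnt genes that did not pass without the replicate block, with circles for replicate 1, triangles for replicate 2 and lines for the group means, clones on the left and parental PEO1 on the right. In all 5 groups replicate 1 is the lower library for AXIN2 and WNT5A and the higher one for ZNRF3 and FZD8.

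Each clone was also compared singly with the parental line. In ABTr1 10 Wnt genes passed, 6 higher and 4 lower, beside 9.8% of all genes (5.49% higher and 4.31% lower). In ABTr2 6 passed, 3 higher and 3 lower, beside 6.11% of all genes (3.31% and 2.81%). In ABTr3 10 passed, 5 higher and 5 lower, beside 7.37% (3.48% and 3.89%). In ABTr4 13 passed, 5 higher and 8 lower, beside 9.71% (4.46% and 5.25%). With the block the counts were 15, 19, 17 and 18, beside 30.1%, 22.1%, 22.6% and 27% of all genes. DKK1 and FZD4 rose and LGR4, RNF43 and WNT10A fell in all 4 clones, WNT10A as a gene that had to differ, beside 2.08% of all genes that rose and 2.11% that fell in all 4. With the block RSPO4, WNT5A, DKK2 and SFRP1 rose and FZD5 and WNT7B fell in all 4 as well, beside 6.46% and 6.2% of all genes. Of these, WNT5A and DKK2 had to differ. These 4 comparisons share the parental libraries.

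Among the 4 clones no Wnt gene differed at an edgeR adjusted p under 0.05, where 1 of all tested genes did (0.00606%). At an unadjusted p under 0.05 there were 4 of the 37 tested Wnt genes (LGR4, FZD1, WNT11 and LRP5), beside 874 of all 16490 genes. At an adjusted p under 0.05 limma-voom called none and DESeq2 called 1, LGR4 (adjusted p = 0.00369), and with the block none passed, beside 0.843% of all genes. LGR4 was lowest in ABTr4 and highest in ABTr3.

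The other parts of the pathway were followed with lists of genes, to be read against the 16% of all genes that passed without the block (7.17% higher and 8.79% lower) and the 34.6% that passed with it (16.3% higher and 18.2% lower). Of 3 genes of Wnt secretion and removal, PORCN, which acylates Wnts, WLS, which carries them to the surface, and NOTUM, which strips the lipid off, none passed without the block and PORCN rose with it (0.99, edgeR adjusted p = 0.0352). Of 7 other extracellular inhibitors 1 rose and none fell, and with the block 4 rose. TRABD2A, a protease that cuts Wnts, had 38.9 ± 4.53 CPM in the clones and 16.4 ± 6.47 CPM in the parental line (1.24, edgeR adjusted p = 0.0235, and 0.171 without parental replicate 2). WIF1, DKKL1 and KREMEN1 had log2 fold changes of 2.34, 2.76 and 0.53 and passed with the block but not without it. WIF1 and DKKL1 passed the filter through the clones alone, so their tests are a description.

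Of 14 genes of alternative receptors and planar polarity 1 rose and 3 fell, and with the block 6 rose and 4 fell, beside 16% and 34.6% of all genes. The planar polarity genes CELSR2, at 110 ± 39.2 CPM in the clones and 394 ± 131 CPM in the parental line, VANGL1 and PRICKLE1 fell (-1.90, -1.29 and -1.69, with edgeR adjusted p of 0.00269, 0.0047 and 0.0434). PRICKLE1 passed in only 6 of 16 other settings and had -0.82 without parental replicate 2 (edgeR adjusted p = 0.453). Their relatives CELSR1 and CELSR3, named after their values were seen, went the other way, with 1.14 and 1.45 (edgeR adjusted p = 0.0506 and 0.086), and rose with the block (0.00721 and 0.0112). RECK, a co-receptor for WNT7A and WNT7B, rose to 24.7 ± 8.39 CPM in the clones, against 6.72 ± 2.42 CPM in the parental line (1.82, edgeR adjusted p = 0.0316). It was lost in 5 of 16 other settings, among them those without parental replicate 1 (1.45, edgeR adjusted p = 0.175) and without parental replicate 2 (2.24, edgeR adjusted p = 0.0996).

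Inside the cell, the cytoplasmic and nuclear lists held 4 genes that fell and none that rose without the block, beside 8.79% of all genes that fell and 7.17% that rose. With the block 8 fell and none rose, beside 18.2% and 16.3%. The combined share that fell was above that of all genes that fell in both fits. Counted in either direction it was under the 16% and 34.6% of all genes, and it rests on few genes. Of 16 cytoplasmic genes 1 fell, CSNK1A1, a kinase of the destruction complex (-0.67 ± 0.17 SE, p adjusted by edgeR = 0.0312), and none rose; with the block 4 fell. CSNK1A1 passed in only 5 of 16 other settings, with an edgeR adjusted p of up to 0.124, reached without parental replicate 2. CTNNB1, which encodes beta-catenin, had 725 ± 121 CPM in the clones and 702 ± 61.0 CPM in the parental line (0.03, edgeR adjusted p = 0.935). Of 14 nuclear genes 3 fell and none rose: the transcription factor TCF7L2 (-0.99, edgeR adjusted p = 0.0111), the co-repressor TLE1 (-1.06, edgeR adjusted p = 0.0112) and the co-activator BCL9 (-0.83, edgeR adjusted p = 0.035). Each of the 3 rests on the parental pair: without parental replicate 2 the edgeR adjusted p was 0.0929 for TCF7L2, 0.0697 for TLE1 and 0.154 for BCL9, TLE1 was also lost without parental replicate 1 (0.0507), and BCL9 passed in only 6 of 16 other settings. TCF7L2 was also lost with the clone as the unit (0.0517). With the block TLE2 fell too (-1.08, edgeR adjusted p = 0.0168). TCF7L2 had 17.8 to 34.2 CPM in the clone libraries, against 47.1 and 51.9 CPM in the parental ones.

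Of 19 tested feedback and target genes 1 fell and none rose without the block, and 6 fell and 1 rose with it. In either direction this is under the 16% of all genes without the block and near the 34.6% with it. With the block the share that fell was above the 18.2% of all genes that fell, and the share that rose was under the 16.3% that rose. EPHB3, a receptor kinase and target of the pathway in the gut, fell to 3.27 ± 1.14 CPM in the clones, against 34.3 ± 4.92 CPM in the parental line (-3.46 ± 0.35 SE, p adjusted by edgeR = 0.000622). MMP7, ID2 and SOX4 had -2.94, 2.15 and -1.51 without the block, where they did not pass, and passed with it (edgeR adjusted p = 0.000183, 0.0451 and 0.0179). MYC, CCND1 and SOX9, named after their values were seen, had -0.87, -0.99 and -1.14 without the block and did not pass, and fell with it (edgeR adjusted p = 0.0127, 0.028 and 0.0472). MYC had 181 ± 15.1 CPM in the clones and 330.1 ± 18.8 CPM in the parental line. The sign of SOX4 turned without parental replicate 2 (0.46).

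The Wnt differences came with a shift of cell state markers. The counts of markers, without the block, are to be read against the 7.17% of all genes that rose and the 8.79% that fell. Of 10 epithelial and serous ovarian markers 9 fell and none rose, and PAX8 did not pass. Their sum was 2710 to 3540 CPM in the clone libraries and 9230 and 14000 CPM in the parental ones, with CDH1 at 1.88 ± 2.47 CPM in the clones and 252 ± 149 CPM in the parental line. Of 9 mesenchymal markers 6 rose and none fell, among them ZEB1 (4.22, edgeR adjusted p = 8.03e-05), CDH2 and VIM. Their sum, mostly FN1, was 613 to 18300 CPM in the clone libraries and 4860 and 5780 CPM in the parental ones. The fibroblast markers DCN, LUM and COL3A1 were at 0 in all libraries. Others of that list were present, with THY1 at 144 CPM in the clones and 124 CPM in the parental line. COL1A1 had 7.91 and 8.31 CPM. Of 5 tested fibroblast markers 1 rose, ACTA2 (2.13, edgeR adjusted p = 0.019), and 1 of 6 endothelial markers fell. Of 4 tested leukocyte markers 1 rose, CD68, and PTPRC did not reach the filter. Of 5 mesothelial markers 1 rose and 1 fell. In lists of 4 to 6 tested genes, 1 call in a direction does not set a list apart from all genes. The part of the cell state shift in the Wnt differences was not tested. In bulk RNA, fewer cells that express a gene and less RNA of it per cell cannot be told apart.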

How the data were processed

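RNA sequencing libraries of 4 resistant clones and parental PEO1, 2 each, were analysed from the counts per gene that the authors deposited, with 0 columns left out. The submitters' processing notes name TopHat2 2.0.14, hg19 and featureCounts 1.4.6 (Subread). The kit (TruSeq RNA v2, per the labels' protocols) does not mark strand, and how strand and multiply matching reads were counted is not given in the sources used here, so overlapping genes may share reads. The samples' library totals were 20640602 to 55488566 counts.

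Of 25370 genes, 16490 passed edgeR's expression filter. A quasi-likelihood model of edgeR 4.0.16 (R 4.3.3) with TMM factors had 1 mean for each of the groups and 5 residual degrees of freedom. P-values were adjusted by Benjamini-Hochberg over these genes, and the threshold was 0.05. Standard errors came from the F statistic, clone means ± SD are over 4 clones, and parental ones over 2 libraries. CPM per kilobase used the deposited exon length.

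Same-numbered libraries deviated together in all 10 pairs of groups (correlations 0.28 to 0.731, over the set 0.1), so the number was taken to pair them, and a fit with it as a block (4 residual degrees of freedom) is given where it changed a call. The block lowered the biological coefficient of variation to 0.234, against 0.368. Other settings were DESeq2 1.42.0, limma-voom 3.58.1, upper-quartile factors, no filter, clone sums as units, and leaving out each library. Counting intervals are at 95%, floors are 3 counts over a group, and both cover counting error only. On simulated counts of 16244 genes for the mean of the clones against parental, the test found 10%, 84%, 92% and 98% of the genes altered 2-, 4-, 8- and 16-fold, and 10 of its 152 calls were false.

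The genes, lists and tests were chosen with earlier results of these data known. Genes that passed, and LRP5, LRP6, RNF43, ZNRF3 and AXIN2 in any case, are given by library, other genes at 1 CPM or more by group or range, and up to 4 per further list. The list size given is the number tested. Promoter sequences are from RefSeq (GRCh38.p14). No coordinates were converted between builds.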

Additional observations from a re-analysis of the deposited data

Results flagged for a closer look

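For 3 Wnt genes 1 clone mean stood apart from the other 3. WNT7A in ABTr4 had a mean of 3.975 CPM, where the other clones had 14.1 to 15.3 CPM. FZD1 in ABTr4 had 3.873 CPM, where the others had 10.0 to 10.7 CPM. SFRP1 in ABTr2 had 246.3 CPM, where the others had 346.5 to 360.1 CPM. Chance alone sets about 1 in 20 groups of 4 apart by this measure, 37 genes were looked at, and none of the 3 differed among clones at an edgeR adjusted p under 0.05 (0.937 for WNT7A, 0.802 for FZD1 and 0.985 for SFRP1).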

How the results depend on the processing

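Of the 12 Wnt genes that passed in the mean of the clones, WNT7B, LGR4, RNF43 and FZD4 passed in 16 of 16 other settings, as did WNT10A, which had to differ, and all 12 kept their direction. With the replicate block, which pairs libraries of the same number, 22 Wnt genes passed in the mean of the clones, 19 in ABTr2 and 17 in ABTr3. The shares of all genes were 34.6%, 22.1% and 22.6%. DESeq2 called 15 Wnt genes in ABTr2, beside 15.1% of all genes, and 1 among the clones, beside 1.72%. Of all genes tested, 5698 passed with the block and 4072 with DESeq2, against 2631 in edgeR without the block. Leaving out 1 library at a time gave 7 to 14 Wnt genes in the mean, 0 to 11 in ABTr1, 2 to 7 in ABTr2, 1 to 10 in ABTr3 and 4 to 13 in ABTr4. The count of 7 came without parental replicate 2, where 6 were lower and 1 higher, and all genes called went down to 918 (5.36%). The share of all genes called moved with the library left out as well, so these counts show nothing particular to the Wnt genes. The sign of the log2 fold change turned in some of these fits for 6 genes that had not passed. Its range over left-out libraries was -2.12 to 0.31 for WNT4, -0.97 to 0.37 for WNT11, -0.61 to 0.06 for FZD6, -2.36 to 0.46 for SOX4, -0.47 to 1.12 for FZD7 and -0.52 to 0.37 for ZNRF3, which also turned with upper-quartile factors (0.04). The cause was not tested. Where a clone or the parental line is left with 1 library, that library is assumed to vary like the other groups. With 2 libraries per group and 1 parental pair behind each comparison, changes near 2-fold were mostly missed in simulated counts.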
